A study of Mus musculus with 9 samples.

Results

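The 10 genes described here carry glucose into lactate and move lactate across cell membranes: the hexokinases Hk1 and Hk2, the regulator Pfkfb3, the glycolytic enzymes Aldoa, Pgk1 and Pkm, the lactate dehydrogenase subunits Ldha and Ldhb, and the monocarboxylate transporters Slc16a1 and Slc16a3. They were taken by gene symbol from a deposited table of 55401 genes, and all 10 were found and were among the 16740 genes tested. The symbol Aldoa stood on 2 rows, so the rule found 11 rows. RNA was sequenced from mouse brain at day 28, in 3 libraries a group. The design text names the peri-infarct area as the tissue of all 3 groups, although sham mice have no infarct, and does not say which brain area was taken from them. All mice were wild type (genotype WT in the labels). The sham and PT groups were given ultrapure water, PT being photothrombosis, a stroke model in which light and a photosensitive dye close cortical vessels. The third group had PT and then Pushen, a commercial drug given by gavage from 24 h after surgery for 28 days, with labelled doses of 391, 392 and 393 mg/kg in 1 library each. Those 3 libraries were treated as 1 group, and dose was not modelled. Every group here shares its day, the sham and PT groups share their water, and no untreated mouse without surgery was analysed here.

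In glycolysis a hexokinase traps glucose in the cell, aldolase splits the hexose, phosphoglycerate kinase and pyruvate kinase each make ATP, and lactate dehydrogenase interconverts pyruvate and lactate. Lactate leaves or enters cells together with a proton through monocarboxylate transporters, and in brain it is known as a fuel passed between glia, vessels and neurons. Hk1 is the main hexokinase of brain. Known targets of the hypoxia-inducible factors in the set include Hk2, Pfkfb3, Ldha and Slc16a3, and that list is not complete.

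Libraries held 57437342 to 75100133 counts, with 7.05% to 9.28% of them from mitochondrial transcripts. The labels name brain as the tissue, while their extraction text speaks of retinas; of 8 photoreceptor markers none reached the expression filter, the highest being 0.27 FPKM (fragments scaled to gene length and to library size). Since nothing in the labels ties a library to an animal of its own, the p-values reflect library-to-library spread alone, and that spread could be technical. PT library 1 and Pushen library 2 stood apart by choroid plexus markers, whose summed level was 547.21 and 629.16 FPKM against 3.71 to 18.62 in sham and 23.73 to 151.71 in the other 4 infarct libraries, all of which thus lay above sham. PT library 1 stood apart also by striatal neuron markers (405.26 FPKM against 45.25 to 98.36). The calls against sham below are therefore also given without those libraries.

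Levels differed widely between the genes and kept 1 order in all 3 groups. By mean FPKM, Aldoa came first (354 in sham), then Pkm (212), Ldhb (204), Pgk1 (134), Ldha (58.8), Hk1 (36.8), Slc16a1 (8.38), Pfkfb3 (3.87), Hk2 (0.62) and Slc16a3 (0.443). Only Pkm and Ldhb overlapped as neighbours, in every group; the ranges of all other neighbouring pairs stayed apart within each group. The treatment of reads that match several gene copies is unknown, and its part in these levels was not tested. Gapdh, picked after its values were seen as a glycolytic gene with many near-identical copies, stood at only 12.05 ± 0.535 FPKM in sham (SD, n = 3). Named copies with a row of their own numbered 4 for Aldoa, 3 for Pgk1, 3 for Ldha and 1 for Ldhb, and the most abundant copy reached 0.1, 6.26, 0.99 and 2.26 FPKM respectively.

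**Figure D1:**
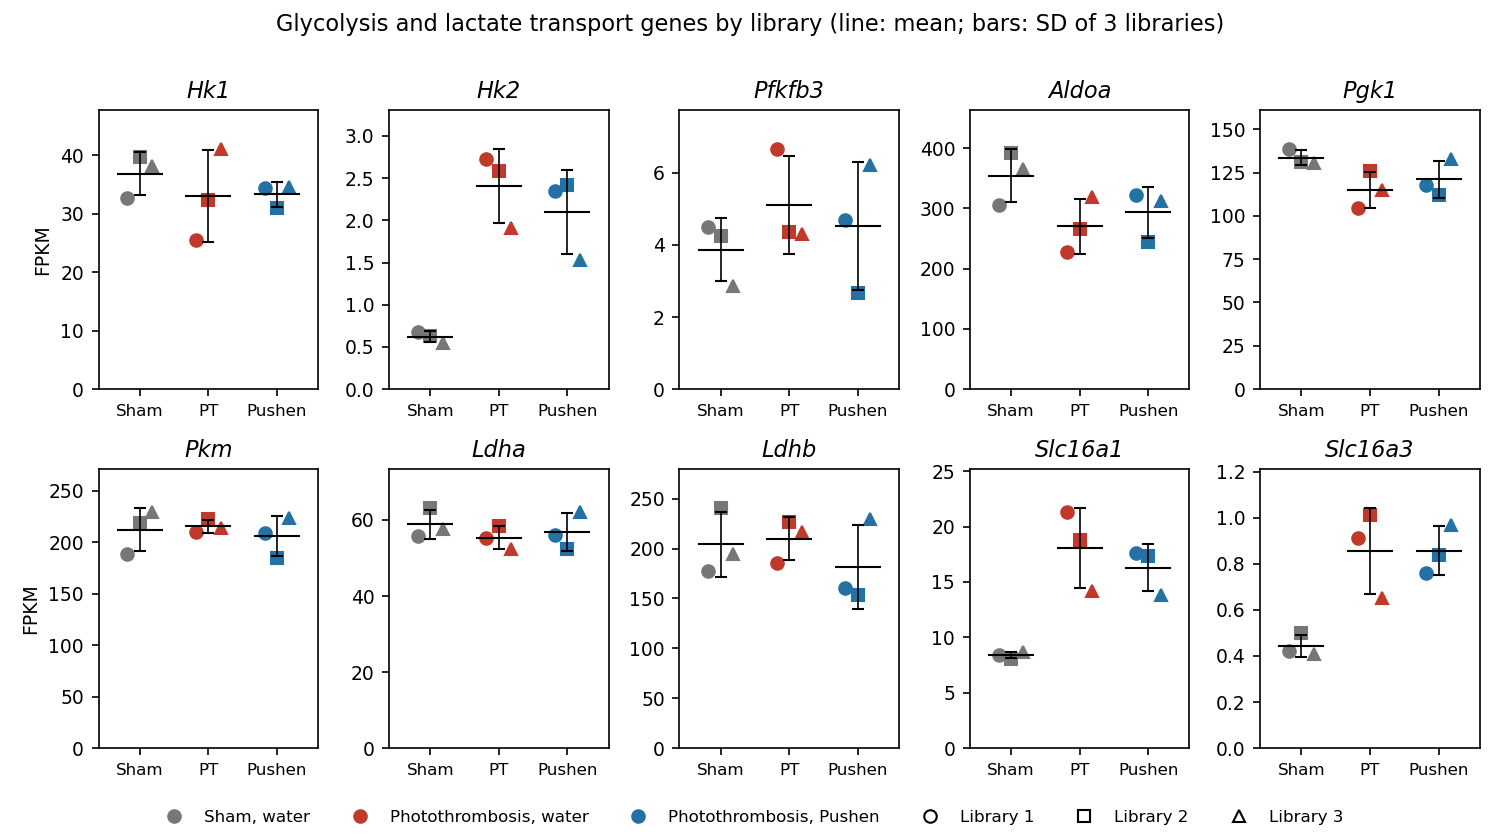
FPKM of each of the 10 genes (y axis, from 0) in the sham, PT and Pushen libraries; symbols are single libraries, lines the group means and bars the SD of 3 libraries. For Hk2, Slc16a1 and Slc16a3 all 6 infarct libraries lie above all 3 sham libraries; for the other 7 genes they do not.

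PT was set against sham to ask how this pathway stood beside the infarct 28 days on. 3 of the 10 genes were higher in PT and none was lower by edgeR's quasi-likelihood test at a Benjamini-Hochberg adjusted p under 0.05: the inducible hexokinase Hk2 and both lactate transporters. Among all 16740 tested genes 30.9% were called in this comparison, 19.1% higher and 11.8% lower, so 3 of 10 genes called is close to the share of the whole table. The median log2 fold change was -0.02 over the 10 genes and -0.00292 over all tested genes. In tissue RNA such as this, fewer cells of a type and less RNA per cell cannot be told apart.

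Hk2, a mitochondria-binding hexokinase that is normally scarce in brain, had the largest change of the 10. The gene (ENSMUSG00000000628) spans chr6:82725025-82774454 on the minus strand in the deposited table, in GRCm38 coordinates as all below. Its level was 0.68, 0.63 and 0.55 FPKM in the sham libraries, and 2.73, 2.59 and 1.91 FPKM in the PT libraries. The lowest PT library was thus well above the highest sham library, and counts behind these values ran from 254 to 1324 over the 9 libraries. The fitted rise was 3.73-fold (log2 fold change 1.90 ± 0.21 SE, 95% interval 1.43 to 2.37, edgeR adjusted p = 0.000544). Without PT library 1 and Pushen library 2 it was 1.80 ± 0.22 on the log2 scale (edgeR adjusted p = 0.00373).

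Slc16a1 (ENSMUSG00000032902, chr3:104638668-104658462) encodes MCT1, a transporter of endothelium and glia, and was 8.40, 8.09 and 8.64 FPKM in sham, a narrow range. In PT it was 21.30, 18.75 and 14.17 FPKM, with PT library 3 the lowest of that group, as for Hk2. The groups did not overlap, and the fitted rise was 2.07-fold (log2 fold change 1.05 ± 0.15, 95% interval 0.72 to 1.38, edgeR adjusted p = 0.00124). With PT library 1 and Pushen library 2 left out it was 0.92 ± 0.14 (edgeR adjusted p = 0.00631).

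Slc16a3 (ENSMUSG00000025161, chr11:120948480-120958775) encodes MCT4, a transporter known for lactate export from strongly glycolytic cells. Its level was low throughout, at 0.42, 0.50 and 0.41 FPKM in sham and 0.91, 1.01 and 0.65 FPKM in PT, from 173 to 463 counts a library. No PT library reached down to the sham range. The sham mean of 0.443 FPKM lay under the expression filter of 0.5, which Slc16a3 passed through its infarct libraries. The rise was 1.84-fold (log2 fold change 0.88 ± 0.20, 95% interval 0.43 to 1.32, edgeR adjusted p = 0.0105). It still passed, narrowly, without PT library 1 and Pushen library 2 (0.83 ± 0.24, edgeR adjusted p = 0.049).

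Because these 3 genes rose together and 2 of them are known targets of hypoxia-inducible factors, their promoters are shown, with 1 of the 2 of Ldha, a further known target that was not called. Each is the 250 bases before a RefSeq start (GRCm38.p6), printed 5′ to 3′ on the gene's strand. Capitals mark every match to ACGTG or GCGTG, the cores searched on both strands (so CACGT and CACGC also count, and a palindromic CACGTG counts once on each strand). The Hk2 window lies at chr6:82774455-82774704 on the minus strand, Slc16a1 at chr3:104638414-104638663, Slc16a3 at chr11:120948817-120949066 and Ldha at chr7:46845554-46845803, the last 3 on the plus strand.
Hk2: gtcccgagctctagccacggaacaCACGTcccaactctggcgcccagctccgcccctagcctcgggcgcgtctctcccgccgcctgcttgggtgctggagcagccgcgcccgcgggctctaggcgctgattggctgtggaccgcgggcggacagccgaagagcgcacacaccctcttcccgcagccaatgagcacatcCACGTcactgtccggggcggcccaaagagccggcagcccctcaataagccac
Slc16a1: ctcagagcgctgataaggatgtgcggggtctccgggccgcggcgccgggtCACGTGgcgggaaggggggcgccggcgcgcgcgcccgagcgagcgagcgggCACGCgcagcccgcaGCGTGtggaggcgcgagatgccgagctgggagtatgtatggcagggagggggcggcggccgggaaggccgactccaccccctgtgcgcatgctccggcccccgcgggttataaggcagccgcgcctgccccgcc
Slc16a3: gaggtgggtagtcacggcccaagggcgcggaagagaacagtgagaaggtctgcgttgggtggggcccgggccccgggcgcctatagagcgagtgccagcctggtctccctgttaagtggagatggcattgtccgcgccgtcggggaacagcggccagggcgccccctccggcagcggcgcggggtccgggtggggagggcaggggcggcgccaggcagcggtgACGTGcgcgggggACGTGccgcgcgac
Ldha: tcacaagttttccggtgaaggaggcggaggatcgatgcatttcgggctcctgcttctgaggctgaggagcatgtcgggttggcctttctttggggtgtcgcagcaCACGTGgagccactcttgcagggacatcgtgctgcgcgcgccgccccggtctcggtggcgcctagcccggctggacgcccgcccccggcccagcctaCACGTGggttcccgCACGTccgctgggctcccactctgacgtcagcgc
The Hk2 and Slc16a3 windows each hold 2 matches to ACGTG, the Slc16a1 window holds 2 to ACGTG and 2 to GCGTG, and the Ldha window shown holds 5 to ACGTG. Ldha has a second RefSeq start, whose window (chr7:46846832-46847081) holds none to ACGTG and 1 to GCGTG. The window of Pgk1, a gene that was not called, holds 2 to ACGTG, as many as that of Hk2. Of the targets named above, Pfkfb3 and Ldha were not called. All 10 genes had a promoter in the RefSeq table, 16 windows in all because some have several starts, and some windows of 1 gene overlap. ACGTG occurred in 10 of those 16 windows and either core in 13, while of all 32851 windows of this length 16.6% hold ACGTG, 28.2% GCGTG and 38.6% either. The windows of the 10 genes were also richer in G and C (median 64.6% against 52.4%). Matches thus stood in front of genes that rose and of genes that did not, and a match is a description of letters, not a binding site.

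The other hexokinase of the set, Hk1 (chr10:62268855-62379908), ran at 32.62, 39.68 and 38.06 FPKM in sham and 25.46, 32.36 and 41.07 FPKM in PT. Those ranges overlapped, PT library 3 being the highest of all 9, and the change did not pass (log2 fold change -0.21 ± 0.16, edgeR adjusted p = 0.344). Left without PT library 3, Hk1 was called lower (-0.42, edgeR adjusted p = 0.0362). Pfkfb3 (chr2:11471433-11554077) makes fructose 2,6-bisphosphate, the activator of phosphofructokinase, and stood at 4.49, 4.26 and 2.87 FPKM in sham and 6.67, 4.35 and 4.31 FPKM in PT. PT library 1 alone lay above the sham range, and the 95% interval of the log2 change, -0.37 to 1.05, holds both no change and a log2 rise of 1 (0.34 ± 0.32, edgeR adjusted p = 0.442).

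Aldoa (ENSMUSG00000030695, chr7:126795234-126800751), the muscle-type aldolase, which is also abundant in brain, was 305.62, 392.76 and 365.03 FPKM in sham and 226.99, 265.56 and 318.32 FPKM in PT. Only PT library 3 entered the sham range. The log2 fold change of -0.45 ± 0.16 (95% interval -0.80 to -0.09) missed the threshold in edgeR (adjusted p = 0.0607), while DESeq2 called it lower (adjusted p = 0.0217), as did edgeR without PT library 3 (-0.59, adjusted p = 0.0205) or without Pushen library 2 (adjusted p = 0.0494). Aldoa overlaps Fam57b on the opposite strand (mean 18.9 FPKM), and it is unknown whether counting used strand. The second Aldoa row, ENSMUSG00000114515 just upstream at chr7:126800790-126809108, stayed between 1.12 and 2.01 FPKM and is left out of the gene counts.

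Pgk1, phosphoglycerate kinase (chrX:106187100-106203699), was 138.73, 131.35 and 130.66 FPKM in sham and 104.45, 125.73 and 114.66 FPKM in PT. Every PT library lay below every sham library, the fourth of the 10 genes whose groups stayed apart (3 higher and this 1 lower); over all tested genes 47.9% did so, 29.3% higher and 18.6% lower. Its log2 fold change was -0.27 ± 0.10 (edgeR adjusted p = 0.0642), and it was called lower by DESeq2 (adjusted p = 0.0275) and by edgeR without Pushen library 3 (adjusted p = 0.043).

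The last steps of the pathway lay close to sham. Pkm, pyruvate kinase (chr9:59656368-59679375), was 188.75, 218.39 and 229.70 FPKM in sham and 210.42, 222.26 and 213.79 FPKM in PT. Its log2 fold change was -0.03 ± 0.10 (95% interval -0.26 to 0.19, edgeR adjusted p = 0.825), and the sign turned to 0.03 when only library size was scaled. Gene counts do not separate its M1 and M2 splice forms, and it overlaps Gm49759 on the same strand (mean 7.25 FPKM).

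Ldha (chr7:46841475-46855627), the subunit that favours lactate formation, was 55.78, 63.19 and 57.54 FPKM in sham and 55.18, 58.46 and 52.31 FPKM in PT (log2 fold change -0.15 ± 0.09, 95% interval -0.35 to 0.06, edgeR adjusted p = 0.243). Ldhb (chr6:142490249-142507957), the subunit that favours lactate use, was 177.27, 240.84 and 194.69 FPKM in sham and 185.81, 226.77 and 216.95 FPKM in PT. Its PT values fell within the sham range, with a log2 fold change of -0.02 ± 0.18 (95% interval -0.41 to 0.38, edgeR adjusted p = 0.956), whose sign turned to 0.04 with scaling by library size only. The intervals of Pkm, Ldha and Ldhb exclude a rise as large as that of Slc16a1, but a p that misses the threshold does not show equal levels.

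**Figure D2:**
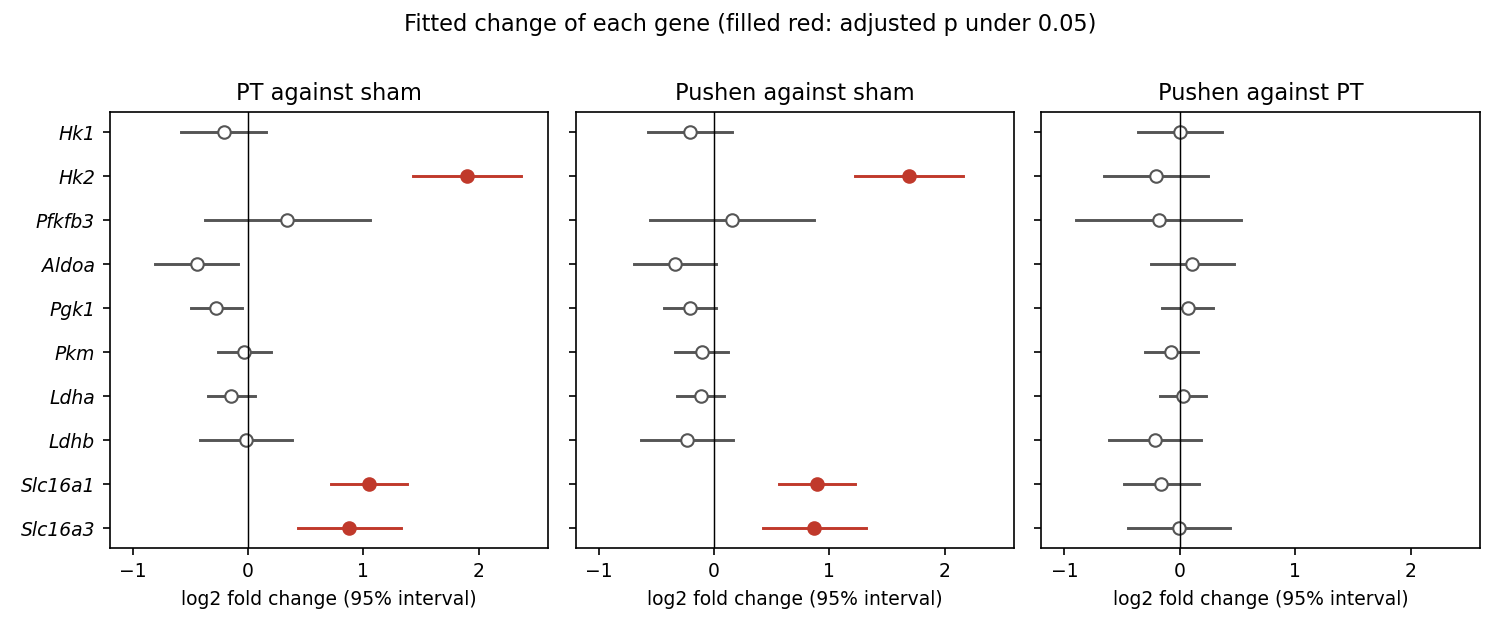
Fitted log2 fold change of each of the 10 genes (x axis) with its 95% interval in the 3 comparisons; filled red points passed an edgeR adjusted p under 0.05. Hk2, Slc16a1 and Slc16a3 passed against sham in both infarct groups, and no gene passed between Pushen and PT.

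Pushen was compared with PT to ask whether the drug moved these genes. None of the 10 passed (0% of all tested genes were called), and none had an unadjusted p under 0.05, which 1086 of 16740 genes had; DESeq2 called 49 genes in the whole table and none of these 10. Hk2 was 2.35, 2.42 and 1.53 FPKM with Pushen, within or below the PT range (log2 difference -0.21 ± 0.20, 95% interval -0.66 to 0.25, edgeR adjusted p = 0.781). Slc16a1 was 17.60, 17.38 and 13.83 FPKM, again lowest in library 3 (-0.16 ± 0.14, interval -0.49 to 0.17, edgeR adjusted p = 0.761).

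Slc16a3 was 0.76, 0.84 and 0.97 FPKM with Pushen, with the same mean as PT (0.857). Its log2 difference was -0.01 ± 0.19 (interval -0.45 to 0.43, edgeR adjusted p = 0.994). The intervals of Hk2 and Slc16a1 allow a fall of up to 0.66 and 0.49 in log2 and a rise of up to 0.25 and 0.17.

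The other 7 genes were spread in the same way. Ldhb was 160.62 and 153.80 FPKM in Pushen libraries 1 and 2 and 229.68 FPKM in library 3, a log2 difference from PT of -0.22 ± 0.18 (edgeR adjusted p = 0.743). Pfkfb3 was 4.68, 2.66 and 6.21 FPKM, the widest relative spread of the set (-0.18 ± 0.31, edgeR adjusted p = 0.877). Aldoa was 322.81, 244.67 and 312.72 FPKM, and Pushen library 2 was its lowest. Pgk1 was 118.06, 112.27 and 133.09 FPKM and Hk1 was 34.32, 30.87 and 34.61 FPKM. Pkm ran at 209.03, 184.99 and 224.04 FPKM and Ldha at 55.94, 52.33 and 62.08 FPKM. For these 5 genes the log2 difference from PT lay between -0.07 and 0.11, and no gene of the 10 had Pushen libraries fully apart from PT libraries, which 12.4% of all tested genes had (7.25% higher and 5.19% lower).

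Against sham, the Pushen libraries showed the same 3 genes higher and none lower (16.2% of all tested genes were called, 13.5% higher and 2.73% lower); this comparison shares its sham libraries with that of PT. Hk2 was 3.23-fold higher (log2 1.69 ± 0.21, edgeR adjusted p = 0.00109) and Slc16a1 1.85-fold higher (0.89 ± 0.15, edgeR adjusted p = 0.00387). Slc16a3 was 1.83-fold higher (0.87 ± 0.20, edgeR adjusted p = 0.0171). Without PT library 1 and Pushen library 2, Hk2 (1.58, edgeR adjusted p = 0.00824) and Slc16a1 (0.84, edgeR adjusted p = 0.0128) still passed. The call of Slc16a3 was lost without PT library 1 and Pushen library 2 (0.89, edgeR adjusted p = 0.0554), without Sham library 1 (0.0618), without Sham library 3 (0.0641) or without Pushen library 2 alone (0.0506). Aldoa (-0.34 ± 0.16, edgeR adjusted p = 0.179) and Pgk1 (-0.21 ± 0.10, adjusted p = 0.187) lay on the same side of sham as in PT without passing. Pushen and sham libraries stayed apart for 3 of the 10 genes, all higher, against 40.3% of all genes (27.2% higher and 13.1% lower).

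In the hexokinase family Hk2 and Hk3 took larger shares in the infarct libraries, at a similar family total. The families were drawn up after the values were seen, and their shares are descriptions. Hexokinase FPKM summed to 41.8 ± 3.88 in sham, 42.1 ± 6.86 in PT and 42.2 ± 1.33 in Pushen, so the totals lay within the spread of the libraries. Inside that total the share of Hk1 was 88.0% in sham, 77.7% in PT and 78.8% in Pushen, that of Hk2 was 1.5%, 5.94% and 4.98%, and that of Hk3, a hexokinase of myeloid cells, was 0.679%, 8.79% and 7.36%. The FPKM ratio of Hk2 to Hk1 was 0.0171 ± 0.00336 in sham, 0.0779 ± 0.0304 in PT and 0.0637 ± 0.0176 in Pushen (SD, n = 3 each). It was higher in all PT and all Pushen libraries than in any sham library (log2 differences 2.13 and 1.88, exact two-sided permutation p = 0.1 for both, the smallest that 3 against 3 allow; over the 9 ratio tests made the design cannot reach 0.05).

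The 4 proton-linked monocarboxylate transporters summed to 9.77 ± 0.307 FPKM in sham, 20.4 ± 4.28 in PT and 18.2 ± 2.22 in Pushen. Slc16a1 made up most of it in each group (85.7%, 88.8% and 89.6%), and the ratio of Slc16a3 to Slc16a1 was 0.0531, 0.0475 and 0.0539, with overlapping libraries (exact permutation p = 0.4 for PT and 1 for Pushen against sham). Slc16a7, the neuronal transporter MCT2, was listed at 0.27 to 2.0 FPKM over the PT libraries and 0.64 to 0.77 over sham. Its Pushen libraries, at 0.43 to 0.51 FPKM, all lay below sham, which did not pass (log2 difference -0.66 ± 0.60, edgeR adjusted p = 0.484). In the lactate dehydrogenases, Ldhb held 77.5%, 79.1% and 75.8%, and the Ldha to Ldhb ratio was 0.291, 0.265 and 0.320 in sham, PT and Pushen (exact permutation p = 0.3 for PT against sham and 0.2 for Pushen against PT). Of the aldolases, Aldoa held 66.5% in sham, 53.4% in PT and 59.6% in Pushen, and Aldoc, the form of astrocytes, 33.1%, 46.1% and 40.1%.

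**Figure D3:**
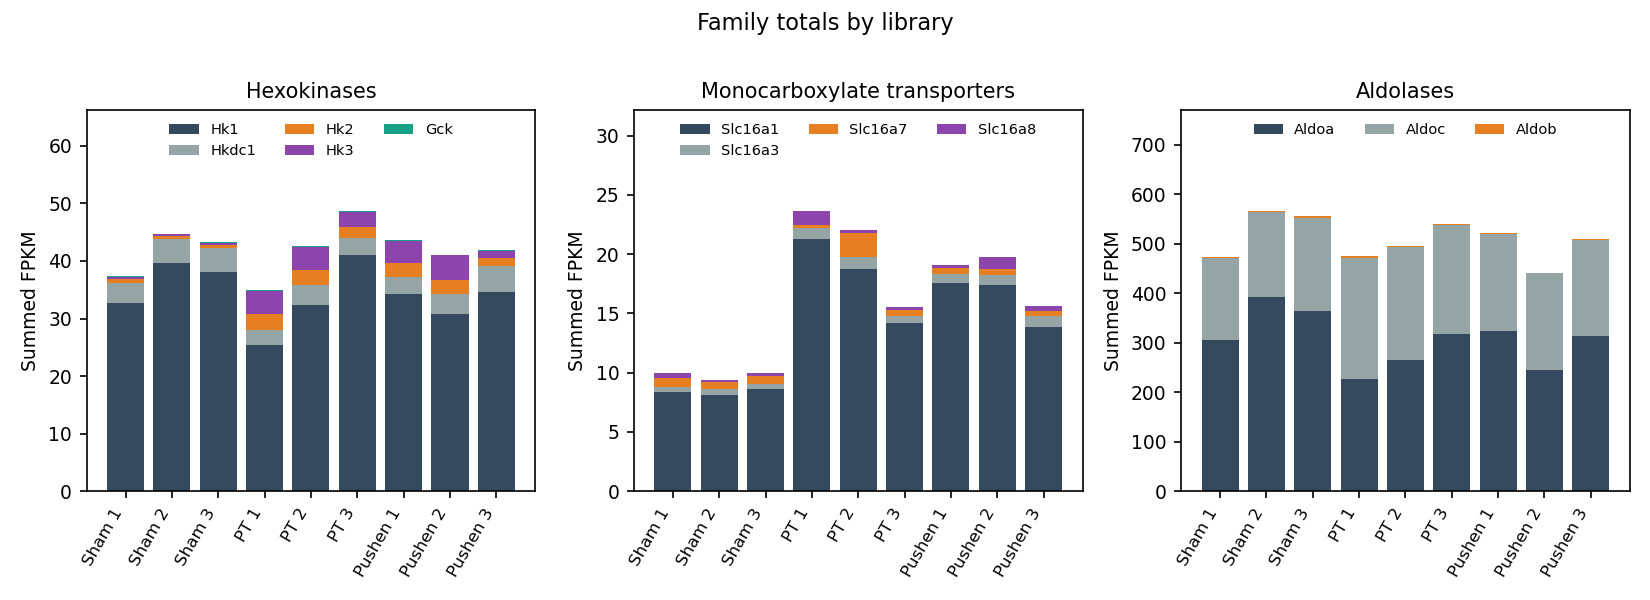
Summed FPKM of the hexokinases, proton-linked monocarboxylate transporters and aldolases in each library (y axes from 0), stacked by gene. Hexokinase totals of the groups overlap while Hk2 and Hk3 take more of them after PT, and the transporter totals of all infarct libraries (15.54 to 23.64) lie above those of sham (9.42 to 9.97).

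The rest of the pathway was read from lists of related genes. Of 9 tested genes of glucose entry, 3 rose and 1 fell in PT against sham. Hk3 (log2 fold change 3.62 ± 0.46), the insulin-responsive glucose transporter Slc2a4 (1.96 ± 0.27) and Slc2a1 (0.50 ± 0.10), the glucose transporter of the blood-brain barrier and astrocytes, rose; Slc2a3 (-0.42 ± 0.10), the neuronal glucose transporter, fell. Hk3 and Slc2a4 averaged 0.28 and 0.307 FPKM in sham, under the expression filter of 0.5, and were tested only through their infarct libraries. Of 18 other glycolytic enzymes 2 rose and 4 fell, and 6 of 18 called is close to the share of all tested genes. Aldoc (0.34 ± 0.08) and the muscle enolase Eno3 (0.40 ± 0.11) rose, while triose phosphate isomerase Tpi1 (-0.34 ± 0.10) and Tigar (-0.56 ± 0.12), a phosphatase acting on fructose 2,6-bisphosphate, fell. The median of that list was -0.09, and its Pushen against sham count was 0 in both directions (16.2% of all tested genes were called there). Without PT library 1 and Pushen library 2, a repeat added for the lists after the data were seen, the 4 calls of glucose entry were the same genes, while of the 6 other glycolytic enzymes Aldoc and Tigar passed.

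Of 18 genes of pyruvate fate 2 rose, the alanine aminotransferase Gpt2 (0.59 ± 0.07) and the pyruvate dehydrogenase kinase Pdk4 (0.67 ± 0.19), and 4 fell, among them Dld (-0.31 ± 0.08) and Dlat (-0.38 ± 0.11), subunits of the pyruvate dehydrogenase complex. In PT against sham 30.9% of all tested genes were called, 19.1% higher and 11.8% lower, so 6 of 18 is close to that share. Of 8 further genes of monocarboxylate transport 3 rose and none fell: the lactate receptor Hcar1 (1.91 ± 0.31), Slc16a13 (0.67 ± 0.15) and Slc16a6 (0.54 ± 0.15). Bsg, the chaperone that brings MCT1 and MCT4 to the membrane, did not pass in PT against sham (0.26 ± 0.16, edgeR adjusted p = 0.24), and with Pushen it was 133 ± 19.4 FPKM against 162 ± 17.8 in PT (log2 difference -0.29 ± 0.16, edgeR adjusted p = 0.707). Without PT library 1 and Pushen library 2, Gpt2 and Dld of the 6 calls in pyruvate fate passed, and Hcar1 of the 3 in monocarboxylate transport.

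The side branches moved upward where they passed, beside 19.1% of all tested genes called higher and 11.8% lower. In the pentose phosphate pathway 3 of 7 rose, namely Pgd (0.94 ± 0.13), Taldo1 (0.63 ± 0.11) and G6pdx (0.65 ± 0.13), the entry enzyme, and in glycogen metabolism 6 of 12, among them the phosphorylases Pygl (1.30 ± 0.21) and Pygb (0.50 ± 0.09) and the phosphorylase kinase subunits Phkg1 (0.65 ± 0.14) and Phka1 (0.39 ± 0.11); none fell in either list. The 3 pentose phosphate calls were the same genes without PT library 1 and Pushen library 2, and Pygl, Pygb and Phkg1 of the 6 glycogen calls passed. Of 20 hypoxia response genes 3 rose, Ndrg1 (1.11 ± 0.18), Ddit4 (1.23 ± 0.21) and Adm (1.15 ± 0.33), and Bnip3 fell (-0.43 ± 0.14), a call lost without those libraries, while P4ha1 was then called higher. Hif1a itself, named outside the naming rule, was at -0.02 ± 0.09 (edgeR adjusted p = 0.869). With Pushen against PT no gene of the 7 lists passed; the smallest p of all was that of Aldoc, 231 ± 12.7 FPKM in PT and 196 ± 1.29 with Pushen (log2 difference -0.25 ± 0.08, edgeR adjusted p = 0.707).

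**Figure D4:**
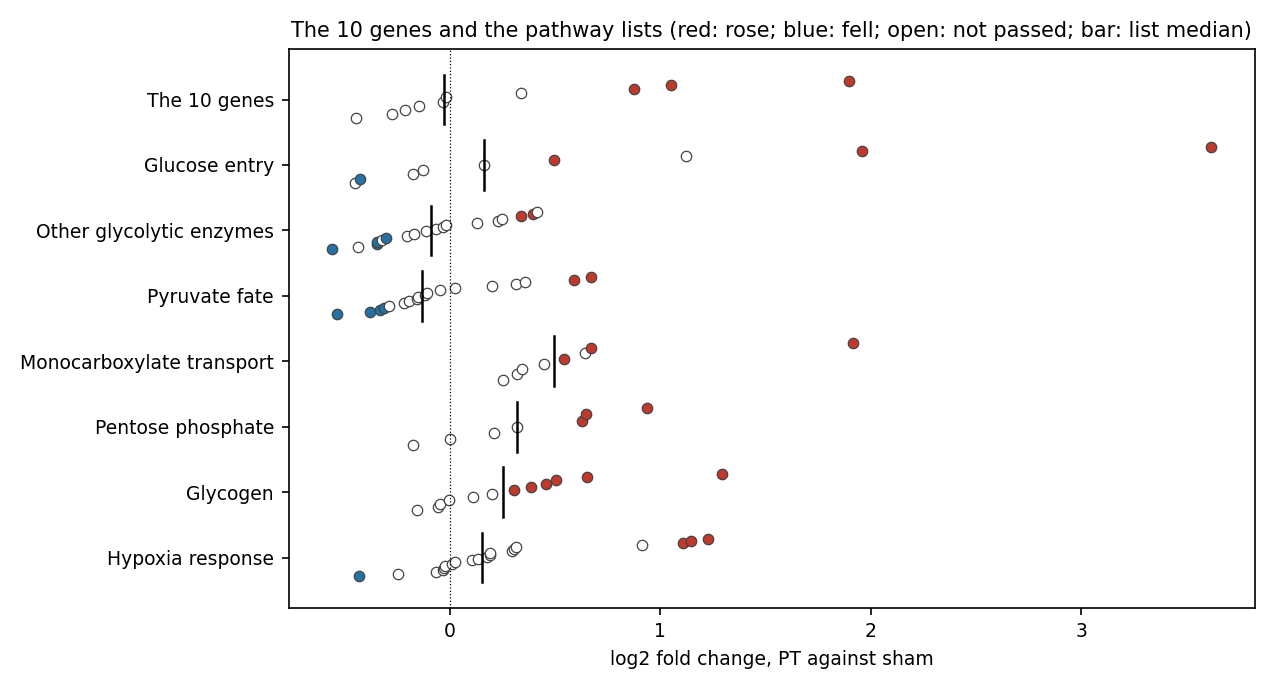
Log2 fold change of PT against sham (x axis) for the tested genes of each list (1 point a gene); filled red rose and filled blue fell at an edgeR adjusted p under 0.05, open points did not pass, and bars are list medians. Every gene that passed in monocarboxylate transport, pentose phosphate and glycogen lies right of 0, and the other glycolytic enzymes and pyruvate fate lie on both sides.

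Markers of cell types moved with the same libraries. Among all tested genes 19.1% were called higher and 11.8% lower in PT against sham. In PT against sham 8 of 10 microglia and macrophage markers rose, as did 3 of 5 infiltrating myeloid, 7 of 8 astrocyte, 6 of 8 oligodendrocyte, 5 of 6 endothelial and 6 of 7 pericyte and fibroblast markers, while 8 of 10 neuron markers fell. In the infiltrating myeloid list Ly6c2, Lyz2 and Mrc1 rose, S100a8 and S100a9 did not pass, and Ccr2 and Cd163 were below the expression filter. Of the choroid plexus and the striatal neuron markers 3 of 6 each rose. Without PT library 1 and Pushen library 2 the microglia and macrophage, infiltrating myeloid, astrocyte, and pericyte and fibroblast counts were the same, and those of oligodendrocytes, endothelium and neurons were 1, 3 and 6. The choroid plexus markers Aqp1 and Kcnj13 were then still called higher, and no striatal neuron marker was. Summed microglia and macrophage FPKM ran from 65.03 to 76.81 in sham, 419.76 to 704.24 in PT and 277.86 to 551.54 in Pushen. Astrocyte markers summed to 249.93 to 284.13, 547.13 to 847.78 and 459.09 to 693.39 FPKM, endothelial markers to 39.81 to 40.73, 51.44 to 68.47 and 53.36 to 55.53 FPKM, and neuron markers to 1235.47 to 1397.35, 838.03 to 1061.13 and 921.7 to 1133.87 FPKM. None of the tested markers of these types was at 0 in a group. Single genes weighed heavily in the sums: from sham to PT, mean C1qa went from 26.4 to 314 FPKM and Gfap from 15.1 to 329. The microglia markers P2ry12 (log2 fold change -0.06 ± 0.25) and Cx3cr1 (-0.33 ± 0.68) and the astrocyte marker Slc1a2 (0.11 ± 0.10) did not pass in PT against sham.

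The microglia and macrophage list lay 2.24, 2.16 and 1.73 above sham in mean log2 in PT libraries 1 to 3 and 2.07, 1.96 and 1.37 above it in Pushen libraries 1 to 3. Hk2 lay 2.08, 1.99 and 1.58 and then 1.85, 1.89 and 1.26 above sham, and was lowest in library 3 of both groups, as was that list. Slc16a1, at 1.29, 1.10 and 0.71 and then 0.99, 0.98 and 0.68, was lowest in the same libraries. Slc16a3 was not, being lowest in PT library 3 (0.50) but highest in Pushen library 3 (1.07). Library 3 of both groups was also lowest for the astrocyte (1.33 in PT, 1.14 in Pushen), endothelium (0.58, 0.28) and pericyte and fibroblast (2.66, 1.86) lists. The same held for the infiltrating myeloid (2.68, 1.52) and striatal neuron (0.14, 0.43) lists, but not for the oligodendrocyte and choroid plexus lists. The neuron list fell least in library 3 of both groups (-0.37, -0.24). The part of these marker lists in the rise of the 3 genes was not tested.

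**Figure D5:**
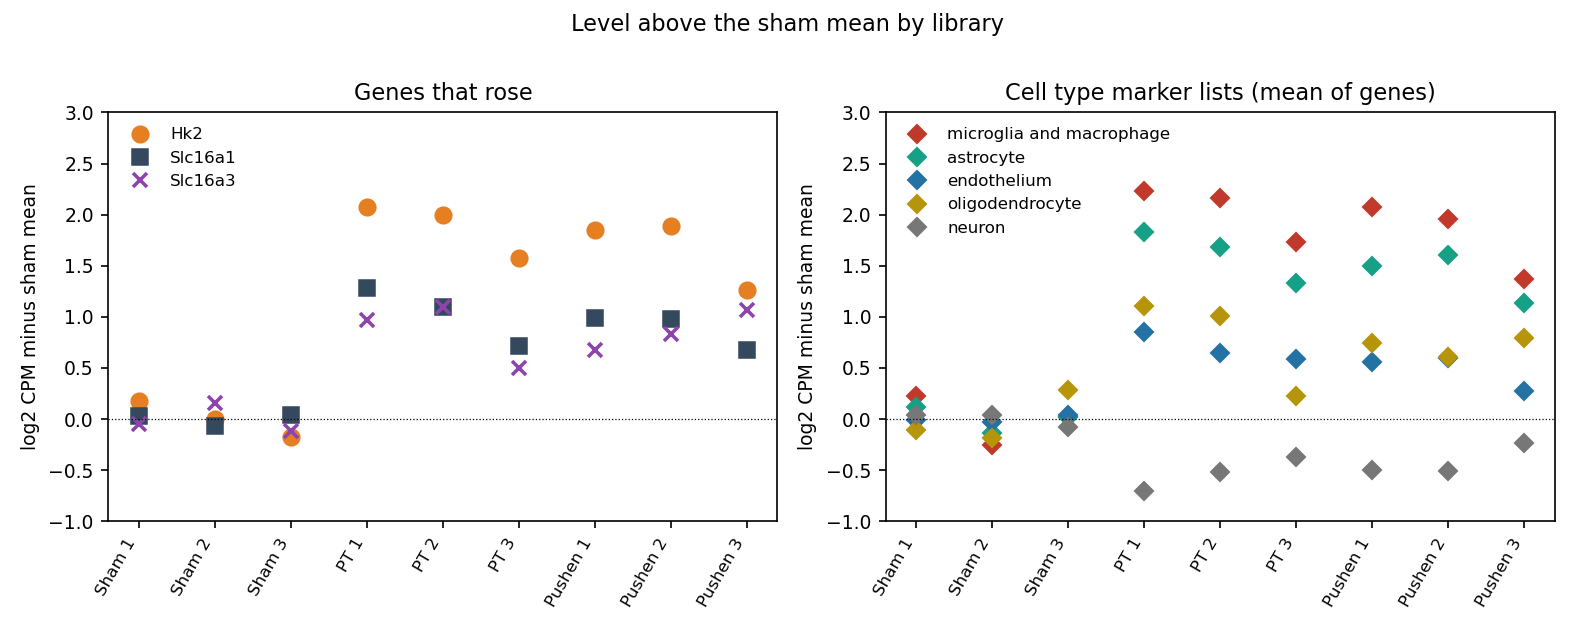
Log2 CPM minus the sham mean in each library (y axis) for Hk2, Slc16a1 and Slc16a3 (left) and as the mean over genes of 5 cell type marker lists (right). Hk2, Slc16a1 and the microglia and macrophage, astrocyte and endothelium lists are lowest in library 3 of both infarct groups. The neuron list is below 0 in all 6 infarct libraries.

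Over the 9 libraries the genes most like Hk2 among 16729 others, by Pearson r of log2 CPM, were Runx1 (r = 0.998), Hspb8 (r = 0.998) and Il13ra1 (r = 0.997), which rose by 3.37 ± 0.35, 2.23 ± 0.21 and 2.02 ± 0.25 in log2 in PT against sham. Those most like Aldoa, the gene with the largest fall in value, were Arhgef25 (r = 0.975), Crmp1 (r = 0.974) and Dnmt1 (r = 0.973), none of which passed in PT against sham. These r values describe libraries that share 3 groups, so a step between sham and infarct is part of each r.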

How the data were processed

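RNA from 9 mouse brain libraries was analysed, 3 a group, grouped by their titles. The deposited table gives counts per gene, deposited as whole numbers and made by a counter not given in the sources used here, nor is its strand setting. FPKM columns beside them were computed by the authors. Bowtie 0.12.2 and build mm8 are named per the submitters' processing notes. The table's coordinates match GRCm38 instead: start and end are those of GENCODE M21 for 51957 of 55141 shared identifiers (94.2%). Column names matched all 18 value columns to libraries, with 0 left over.

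The filter was a 9-library mean of 0.5 FPKM or more, which kept 16740 of 55401 genes. A gene under 0.5 FPKM in sham was thus tested only if it was higher in the infarct libraries, and counts of rises include such genes. Among them were Slc16a3, Hk3, Slc2a4, Hcar1, Pygl, Ly6c2, Mrc1 and Aqp1. Their sham means were 0.443, 0.28, 0.307, 0.413, 0.36, 0.22, 0.297 and 0.1 FPKM. Scaling used edgeR's trimmed mean of M values, and 1 model of the 3 groups was fitted in edgeR 4.0.16 (quasi-likelihood test, R 4.3.3), with Benjamini-Hochberg adjustment over all tested genes and a threshold of 0.05. The SE is the log2 fold change over the square root of F, and intervals are 95%. Family ratios of FPKM were tested by exact permutation. The genes, lists and tests were chosen with earlier results of these data known. Named are the 10 genes, of each list up to 4 genes of smallest p that passed in PT against sham and up to 2 of smallest p in Pushen against PT, and the 3 genes most like the largest rise and fall. Alternatives were other filters and scalings, DESeq2 1.42.0, limma 3.58.1 on log2 FPKM with a pseudocount, fits of 2 groups, a replicate block, and libraries left out. Libraries of a group differed beyond counting noise (chi-square per gene at least 35.0), so none was counted as a copy.

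Simulated data held 67 genes changed 2-fold and 67 changed 1.5-fold among 16740. The edgeR fit found 61.2% and 7.46% of them in PT against sham and 59.7% and 11.9% in Pushen against PT, with 8 false calls in each. Far more genes were called in the real PT against sham fit (5176), so the simulation needed a smaller unadjusted p to pass. The real Pushen against PT fit called 0 genes, so a gene there needed a smaller unadjusted p to pass than in the simulation. The simulated shares therefore do not measure what either real fit could find. Promoters are RefSeq windows (GRCm38.p6) cut to the 250 bases before the start. Figures used matplotlib 3.10.9 in Python 3.11.15.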

Additional observations from a re-analysis of the deposited data

How the results depend on the processing

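Hk2, Slc16a1 and Slc16a3 stayed called higher in PT against sham under every alternative run. The number of the 10 genes called there was 3 to 5 with 1 library left out and 5 by DESeq2, the additions being Aldoa, Pgk1 or Hk1, all lower. It was 0 to 0 for Pushen against PT and 2 to 3 for Pushen against sham. Over all tested genes 5176, 0 and 2718 were called in PT against sham, Pushen against PT and Pushen against sham; leaving out 1 library gave 3198 to 5799, 0 to 5 and 1538 to 3736. For Pushen against PT, DESeq2 called 49 genes, the fit of 2 groups 1, and the fit without PT library 1 and Pushen library 2 called 2. The share of calls that were higher was 61.9% in PT against sham and 71.5% when only library size was scaled, and 83.2% in Pushen against sham against 71.7% by DESeq2, 66.1% in the fit of 2 groups and 91.6% by library size only.

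Changes near 0 turned sign. In PT against sham, library size only, limma on log2(FPKM + 0.1) and on log2(FPKM + 1) gave Pkm 0.0254, 0.0262 and 0.0260 and Ldhb 0.0422, 0.0457 and 0.0455, and Ldhb was 0.0656 without PT library 1 and Pushen library 2. In Pushen against PT, Slc16a3 was 0.000212, 0.0136 and 0.00341 under those 3 settings. Without PT library 1 and Pushen library 2, Slc16a3 was 0.0568, Hk1 -0.10, Pfkfb3 0.33 and, against sham, the log2 ratio of Slc16a3 to Slc16a1 with Pushen was 0.0616; Hk1 was -0.00629 with upper quartile scaling. With 1 library left out, log2 changes in PT against sham ran from -0.10 to 0.11 for Ldhb and -0.10 to 0.0220 for Pkm. In Pushen against PT they ran from -0.15 to 0.20 for Hk1, -0.50 to 0.0889 for Pfkfb3, -0.00428 to 0.25 for Aldoa, -0.17 to 0.12 for Slc16a3, -0.0498 to 0.0880 for Ldha, -0.15 to 0.00134 for Pkm and -0.0161 to 0.13 for Pgk1, and Pfkfb3 in Pushen against sham from -0.16 to 0.43. The log2 ratio of Hk2 to Hk1 in Pushen against PT ran from -0.58 to 0.0211, and that of Slc16a3 to Slc16a1 from -0.0490 to 0.30 in Pushen against PT and -0.21 to 0.14 in Pushen against sham. The causes were not tested.

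Replicate numbers did not pair the libraries: deviations of the 9 same-numbered pairs correlated at -0.22 to 0.0988, and 1 library correlated best with its own number. With the replicate block 3, 0 and 3 of the 10 genes were called in the 3 comparisons and 4266, 0 and 2108 of all genes, and Slc16a3 in Pushen against PT was 0.00749. Depth limits Slc16a3 most, with 173 counts in its lowest library.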
